A study of Rattus norvegicus with 6 samples.

Results

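The enzymes of the hexosamine pathway and of O-GlcNAc cycling form a set of 7 genes: Gfpt1, Gfpt2, Gnpnat1, Pgm3, Uap1, Ogt and Mgea5. They were picked for their place in the pathway, with earlier results of these data known. All 7 were found among the 32623 gene rows of the deposited table by gene name, with Mgea5 listed under its newer name Oga. Of the 7, 6 reached the level at which genes were tested (at least 1 FPKM, fragments per kilobase of transcript, scaled to the library's depth, in at least 2 libraries), as did 12229 genes in all. RNA was sequenced from H9C2 cells, a myoblast line from embryonic rat heart. Ctrl (genotype control) was untreated, HG (genotype control) was exposed to 33 mM glucose for 8 h, and siFGFR1+HG (genotype FGFR1 knockdown) was transfected with an siRNA against the FGF receptor FGFR1 before the same exposure, with 2 libraries in each group. All cells had been kept in medium with 1 g/L glucose.

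The hexosamine pathway diverts a small part of the fructose-6-phosphate of glycolysis, together with glutamine, acetyl-CoA and UTP, into the nucleotide sugar UDP-GlcNAc. UDP-GlcNAc feeds glycan synthesis in the secretory pathway, and it is the donor from which OGT places single GlcNAc sugars on serines and threonines of nuclear and cytosolic proteins. OGA takes these sugars off again. High glucose has long been linked to more flux through this pathway and to more O-GlcNAc on heart muscle proteins, and in mammalian cells the amounts of OGT and OGA are known to adjust to the level of the modification. Transcript levels, the quantity measured here, give neither flux nor protein modification.

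The libraries held between 46960084 and 75021470 counts, with the deepest, Ctrl 2, in the untreated group. Whether the 2 libraries of a group were grown as separate cultures is not in the labels, so p-values measure the spread between these libraries, which may be technical. No control siRNA is named, so effects of the siRNA and of transfection cannot be told apart, and without an osmotic control neither can glucose and osmolarity. Fgfr1 itself had 0 and 4 counts in the Ctrl libraries, 0 and 0 in the HG libraries and 4 and 0 in the siFGFR1+HG libraries, all under a floor of 12 counts, so that the knockdown could not be checked. Of 9 muscle markers 7 were present at 1 FPKM or more, among them Myod1 at 62.9 to 67.4 FPKM, while Myf5 was at 0 in every library. The muscle list also held Tnnt2, the cardiac troponin T gene, at 75.7 to 129 FPKM, and Myl4 at 13.7 to 22.7 FPKM. The summed marker level was 398 to 410 FPKM in Ctrl, 388 in both HG libraries and 318 to 319 in siFGFR1+HG. Cdh15 (116 to 139 FPKM) and Tnnt2 were the largest parts of this sum, while Myod1 varied little. Cardiomyocyte (7 genes, Myl2 at 0), endothelial and epithelial markers had no gene at that level, and of 6 macrophage markers 1 reached it (Cd68, at most 1.31 FPKM), with Ptprc at 0 throughout. In bulk samples, fewer cells of a type and less RNA per cell cannot be told apart.

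Oga was the 1 member called with all libraries in the fit, and it was called in all 3 comparisons. Oga fell 1.17-fold in HG against Ctrl, rose 1.37-fold in siFGFR1+HG against HG, and exceeded its Ctrl level 1.17-fold in siFGFR1+HG. Only the rise against HG held with each library left out. The transferase Ogt and the synthetic enzymes Gfpt1, Gnpnat1, Pgm3 and Uap1 passed that test in none of the 3 comparisons. Ogt and Gnpnat1 did pass under some alternatives, and Gfpt2 was all but absent. The promoters of Oga and Ogt, which encode the enzymes that remove and add the sugar, are shown here because the results turn on this pair. Each is the 250 bases before the transcription start in RefSeq, 5′ to 3′ on the gene's strand, in the rat build GRCr8. That is not the build of the count table, whose coordinates are given separately. The Oga window is chr1:254582270-254582519 on the minus strand, and the Ogt window is chrX:70811085-70811334 on the plus strand. Capitals mark matches on either strand to GGGCGG (the GC box bound by Sp1), CCAAT (the box of that name), CACGTG (an E-box) or TGACGT (the core of a cyclic AMP response element). A match counted wherever the letters occurred, overlapping another match or not.
Oga: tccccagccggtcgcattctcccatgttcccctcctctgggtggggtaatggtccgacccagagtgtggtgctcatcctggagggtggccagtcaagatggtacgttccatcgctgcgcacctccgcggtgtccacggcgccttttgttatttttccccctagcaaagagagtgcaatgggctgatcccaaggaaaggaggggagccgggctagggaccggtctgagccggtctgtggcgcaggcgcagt
Ogt: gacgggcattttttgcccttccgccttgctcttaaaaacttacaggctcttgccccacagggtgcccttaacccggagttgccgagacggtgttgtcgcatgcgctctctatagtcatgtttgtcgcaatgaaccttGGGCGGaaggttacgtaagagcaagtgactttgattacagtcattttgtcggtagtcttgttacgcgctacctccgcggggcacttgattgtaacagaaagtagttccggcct
RefSeq lists 2 starts for Ogt, and the window of the upstream one is shown. The Ogt window held 1 GC box, at 113 bases before the start, and none of the other letters, and the Oga window held none of the 4. Of 33469 promoter windows of this length, 30.5% held a GC box, 34.0% a CCAAT, 5.59% an E-box and 6.95% the response element core. RefSeq windows matched 5 of the 7 members by symbol (Gfpt1, Gnpnat1, Uap1, Ogt and Oga, but not Gfpt2 or Pgm3). GC bases made up 62.0% of the Oga window and 51.2% of the Ogt window. These matches describe letters and do not locate binding.

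The entry step of the pathway, in which glutamine-fructose-6-phosphate transaminase makes glucosamine-6-phosphate, was carried at the transcript level by Gfpt1 (chromosome 4, 118852062 to 118901591, plus strand, coordinates as in the deposited table). Gfpt1 measured 23.0 and 21.9 FPKM in the Ctrl libraries, 23.6 and 21.5 in the HG libraries and 23.3 and 23.9 in the siFGFR1+HG libraries, from 7239 to 10546 counts per library. The HG libraries enclosed the Ctrl values, and the siFGFR1+HG libraries, on either side of the higher HG library, both lay above Ctrl. Its log2 fold change was -0.01 ± 0.06 (SE) for HG against Ctrl, with a 95% interval from 0.901-fold to 1.09-fold, and 0.08 ± 0.06 for siFGFR1+HG against HG, with an interval from 0.960-fold to 1.16-fold. The p-values from the quasi-likelihood test of edgeR, adjusted over all tested genes by the Benjamini-Hochberg method, were 0.915 and 0.348. The paralog Gfpt2 (chromosome 10, 35279236 to 35325508, plus strand), an isozyme best known from the nervous system and from mesenchymal cells, had 4 counts in Ctrl 1, or 0.0223 FPKM, and 0 counts in the other 5 libraries. All of these lie under the floor of 12 counts, which equals 0.160 to 0.256 CPM (counts scaled to library size) depending on the library and covers counting error only. No fold is given and Gfpt2 was not tested.

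Gnpnat1 (chromosome 15, 19721293 to 19733967, minus strand) encodes the enzyme that acetylates glucosamine-6-phosphate, and it was the lowest of the tested members and the most variable. It measured 8.89 and 4.08 FPKM in the Ctrl libraries, 8.92 and 8.84 in the HG libraries and 4.94 and 5.93 in the siFGFR1+HG libraries, from 469 to 922 counts. Ctrl 1 thus sat at the HG level and Ctrl 2 below both siFGFR1+HG libraries, a 2.18-fold gap within the untreated group. Both siFGFR1+HG libraries were below both HG libraries. The change from HG to siFGFR1+HG was -0.69 ± 0.34 on the log2 scale (95% interval 0.352-fold to 1.09-fold, edgeR quasi-likelihood adjusted p = 0.175). It passed with the same test without Ctrl 1 (adjusted p = 0.0216) and without Ctrl 2 (adjusted p = 0.0182), at log2 values of -0.70 and -0.69. Against Ctrl, HG differed by 0.44 ± 0.34 (adjusted p = 0.444). That value rested on the Ctrl libraries: it was 1.11 without Ctrl 1, which passed (adjusted p = 0.0430), and -0.02 without Ctrl 2. For siFGFR1+HG against Ctrl the value of -0.26 ± 0.34 (adjusted p = 0.637) turned to 0.41 without Ctrl 1 and was -0.72 without Ctrl 2, where it passed (adjusted p = 0.0493).

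Pgm3 (chromosome 8, 94225515 to 94243215, minus strand), the mutase that turns N-acetylglucosamine-6-phosphate into the 1-phosphate, measured 21.0 and 23.3 FPKM in the Ctrl libraries, 23.4 and 24.8 in the HG libraries and 23.1 and 24.6 in the siFGFR1+HG libraries. The HG and siFGFR1+HG values interleaved, and both HG libraries lay above both Ctrl libraries, Ctrl 2 only just below the lower of them. The log2 fold changes were 0.10 ± 0.07 for HG against Ctrl (95% interval 0.958-fold to 1.20-fold) and -0.00088 ± 0.07 for siFGFR1+HG against HG (0.892-fold to 1.12-fold), with edgeR adjusted p-values of 0.378 and 0.994. Uap1 (chromosome 13, 88463532 to 88497901, minus strand) encodes the pyrophosphorylase that joins the sugar phosphate to UTP and completes UDP-GlcNAc. It measured 18.4 and 19.9 FPKM in the Ctrl libraries, 21.4 and 19.9 in the HG libraries and 18.6 and 18.7 in the siFGFR1+HG libraries. Both siFGFR1+HG libraries lay below both HG libraries, and the Ctrl and HG values overlapped. Uap1 did not pass in HG against Ctrl (log2 0.09 ± 0.06, 95% interval 0.959-fold to 1.18-fold, edgeR adjusted p = 0.393) or in siFGFR1+HG against HG (-0.13 ± 0.06, 0.821-fold to 1.01-fold, adjusted p = 0.159).

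**Figure D1:**
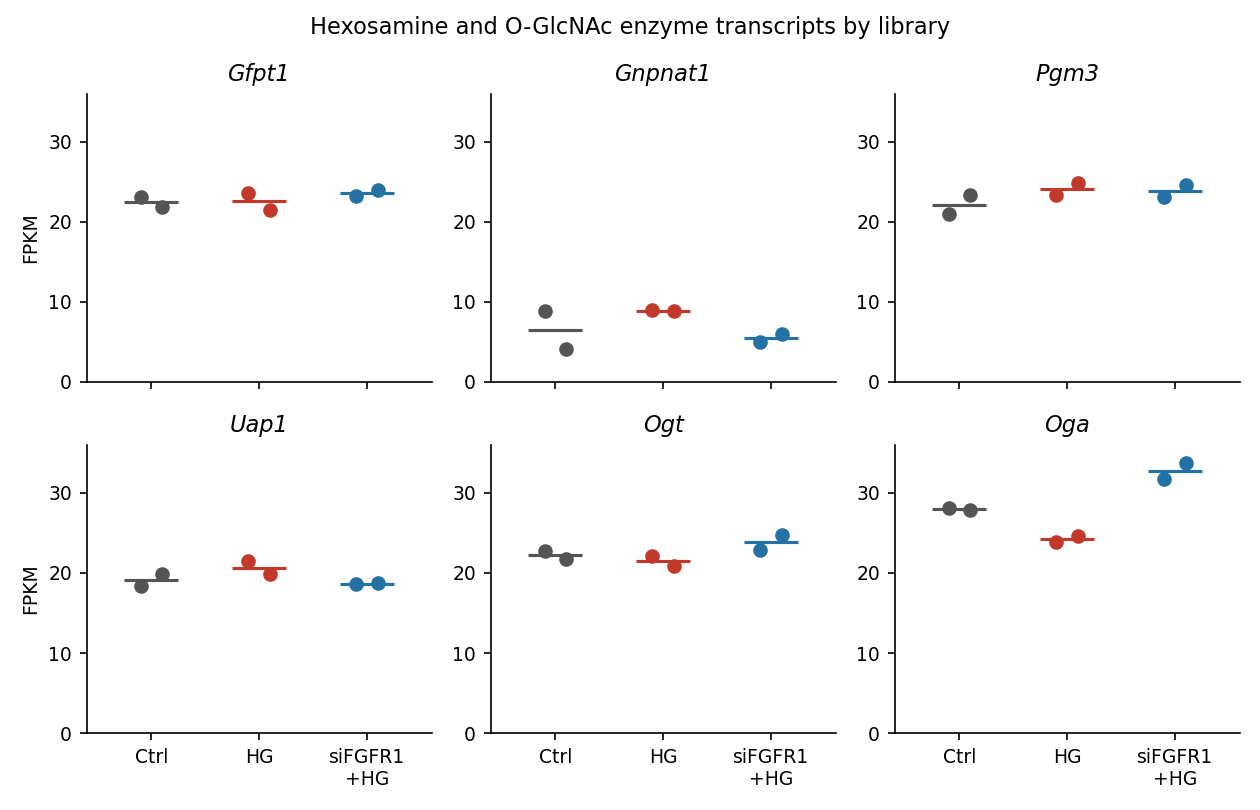
FPKM of the 6 tested members in each of the 6 libraries, with 1 panel per gene, points for libraries and a line for the group mean. Oga separates the 3 groups (HG 23.8 to 24.6, Ctrl 27.8 to 28.1, siFGFR1+HG 31.8 to 33.8 FPKM), Gnpnat1 is split within Ctrl (4.08 and 8.89), and the other 4 genes stay between 18.4 and 24.8.

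Ogt (chromosome X, 71528988 to 71585908, plus strand) encodes the only known enzyme that adds O-GlcNAc to nuclear and cytosolic proteins. It measured 22.7 and 21.7 FPKM in the Ctrl libraries, 22.1 and 20.9 in the HG libraries and 22.8 and 24.8 in the siFGFR1+HG libraries, from 6237 to 9274 counts. HG overlapped Ctrl. In FPKM both siFGFR1+HG libraries lay above the other 4, siFGFR1+HG 1 (22.82) only just above Ctrl 1 (22.72). Against Ctrl, HG differed by -0.07 ± 0.06 on the log2 scale (95% interval 0.867-fold to 1.05-fold, edgeR adjusted p = 0.504). Against HG, siFGFR1+HG was at 0.16 ± 0.06 (1.01-fold to 1.23-fold), which did not pass after adjustment (unadjusted p = 0.0308, edgeR adjusted p = 0.0847), though it did with DESeq2 (adjusted p = 0.0207). Against Ctrl, siFGFR1+HG was at 0.09 ± 0.06 (0.969-fold to 1.18-fold, edgeR adjusted p = 0.305).

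Oga (chromosome 1, 265507451 to 265542276, minus strand) encodes O-GlcNAcase, the nuclear and cytosolic enzyme that removes the sugar. It measured 28.1 and 27.8 FPKM in the Ctrl libraries, 23.8 and 24.6 in the HG libraries and 31.8 and 33.8 in the siFGFR1+HG libraries, from 5610 to 9070 counts. The 3 groups did not overlap, with HG lowest and siFGFR1+HG highest, and the gaps between groups exceeded the spread within them. The group means were 28.0 ± 0.217 FPKM in Ctrl, 24.2 ± 0.554 in HG and 32.8 ± 1.40 in siFGFR1+HG (SD, n = 2). The fall in HG against Ctrl was -0.23 ± 0.05 on the log2 scale (95% interval 0.792-fold to 0.922-fold, edgeR quasi-likelihood adjusted p = 0.0251). With 2 libraries a group this call did not survive the removal of Ctrl 1, Ctrl 2, HG 1 or HG 2 (adjusted p = 0.0618 to 0.129, log2 -0.25 to -0.21), and it was just missed with limma on log2(FPKM + 1) (adjusted p = 0.0530).

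The rise of Oga in siFGFR1+HG against HG was 0.45 ± 0.05 on the log2 scale (1.27-fold to 1.47-fold, edgeR adjusted p = 0.00112). It ranked at place 437 of 12229 genes by p. It passed in all 16 alternatives tried, at log2 values from 0.40 to 0.49, among them every fit with 1 library left out. Against Ctrl, siFGFR1+HG was higher by 0.22 ± 0.05 (1.08-fold to 1.26-fold, edgeR adjusted p = 0.0167). That call was lost without Ctrl 1 (adjusted p = 0.0762), without Ctrl 2 (adjusted p = 0.0913) and without siFGFR1+HG 2 (adjusted p = 0.0892). The 3 comparisons share libraries, and so their values for Oga are not independent of each other. The sum of muscle markers given above, to which Cdh15 and Tnnt2 add most, was lower in siFGFR1+HG as Oga was higher. The part of these markers in this result was not tested.

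**Figure D2:**
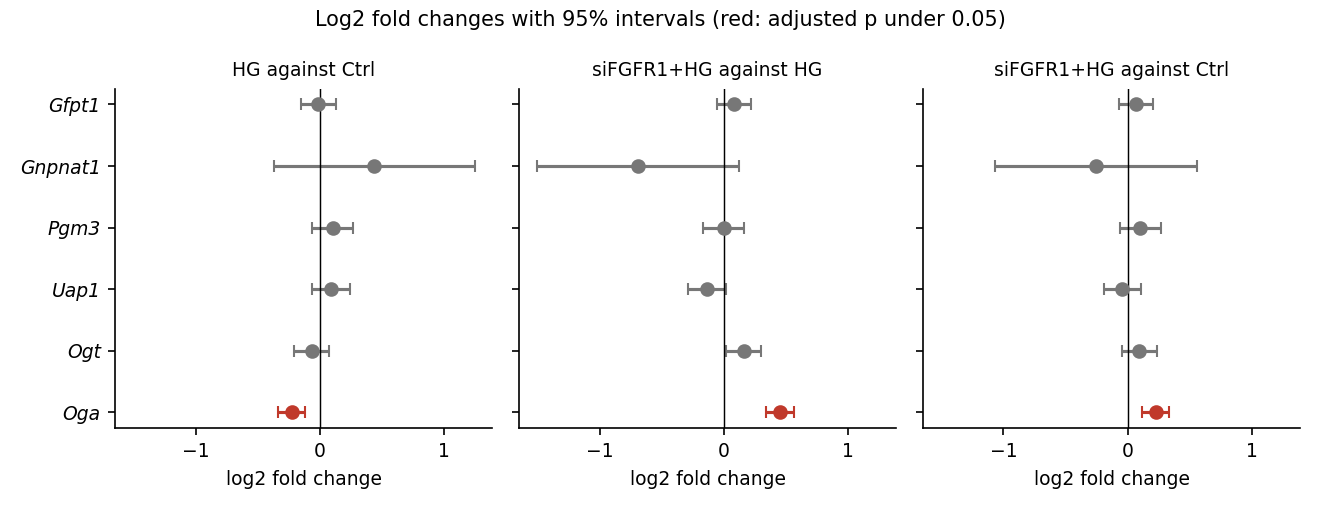
Log2 fold changes of the 6 tested members from edgeR, with 95% intervals as bars, for each of the 3 comparisons. Red points passed at an adjusted p under 0.05, which Oga did in each panel (-0.23, 0.45 and 0.22), while the intervals of Gnpnat1 are the widest (-0.37 to 1.25 in the left panel).

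In HG against Ctrl 1 of 6 members was called, where 13.7% of tested genes were, in siFGFR1+HG against HG 1 of 6, where 29.9% were, and in siFGFR1+HG against Ctrl 1 of 6, where 22.3% were. With 6 genes these counts are near the background and are no result about the set. The median size of the log2 change, without regard to sign, was 0.10 over the 6 members and 0.14 over all tested genes in HG against Ctrl. It was 0.15 and 0.19 in siFGFR1+HG against HG, and 0.10 and 0.17 in siFGFR1+HG against Ctrl. The median SE was 0.06 for the members and 0.09 for all tested genes in each comparison, so the sizes are not measured with the same error. The signed medians were 0.04, 0.04 and 0.08 for the members and 0.0033, -0.0084 and 0.01 for all genes.

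Per length, Oga had the highest group mean of the members in every group. Averaged over the 6 libraries the order was Oga (28.3 FPKM), Pgm3 (23.3), Gfpt1 (22.9), Ogt (22.5), Uap1 (19.5), Gnpnat1 (6.93) and Gfpt2 (0.0038). Pgm3, Gfpt1 and Ogt differed by less than the SD of each over the 6 libraries (1.35, 0.985 and 1.31 FPKM), so their order is not resolved. In HG, where Oga was lowest, its libraries (23.8 and 24.6 FPKM) overlapped those of Pgm3 (23.4 and 24.8).

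The level of Ogt relative to Oga describes the balance of writer and eraser transcripts. The ratio of their FPKM values was 0.808 and 0.782 in the Ctrl libraries, 0.929 and 0.850 in the HG libraries and 0.718 and 0.734 in the siFGFR1+HG libraries. The groups did not overlap, HG having the highest ratios and siFGFR1+HG the lowest. The mean ratio was 0.795 ± 0.0185 in Ctrl, 0.889 ± 0.0554 in HG and 0.726 ± 0.0115 in siFGFR1+HG (SD, n = 2). With 2 libraries against 2, the exact two-sided permutation test gave p = 0.333 in each of the 3 comparisons, which is the smallest it can give. The ratio was taken up after the values of both genes had been seen. The log2 difference was 0.16 between HG and Ctrl (HG minus Ctrl) and -0.29 between siFGFR1+HG and HG (siFGFR1+HG minus HG). Leaving out HG 1, the library with the higher ratio, gave 0.10 for the former and leaving out HG 2 gave 0.22.

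**Figure D3:**
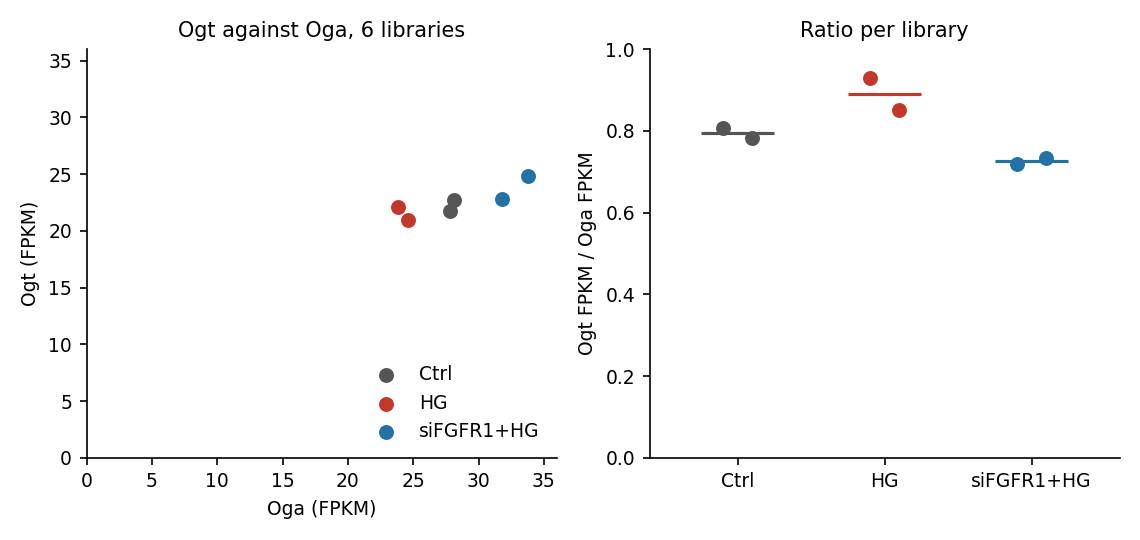
Left, Ogt against Oga in FPKM for each library; right, the ratio of Ogt to Oga per library, with a line for the group mean. Libraries spread along the Oga axis (23.8 to 33.8 FPKM) more than along the Ogt axis (20.9 to 24.8), and the ratio is highest in HG (0.850 and 0.929).

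Among 7849 candidate genes, genes nearest to each of 3 members in their profile over the 6 libraries were listed, by the root mean square distance of log2 CPM centred on each gene's mean. For Oga these were Frs2, an adaptor that FGF receptors phosphorylate (distance 0.02, Pearson r = 0.993), Adamts12, a secreted metalloprotease (0.02, r = 0.994), and Arhgap21 (0.03, r = 0.997). For Ogt they were Igsf8 (distance 0.02, r = 0.984), Camsap2 (0.02, r = 0.969) and Pik3c2a (0.02, r = 0.986), and for Gfpt1 they were Arhgef10l (0.02, r = 0.957) and Klc1 (0.02, r = 0.934). Each r is over 6 libraries that share their depth and scaling, and it describes the choice and no more. Gfpt2 was too low to be compared.

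Around the members, 6 lists of genes named for their roles were followed in HG against Ctrl and in siFGFR1+HG against HG. Over all tested genes, 13.7% were called in the former and 29.9% in the latter. The called counts of each list are to be read beside these shares, and no list was tested as a set. Of the list genes called below, Glul, Has2, Lfng, Trak1, Hcfc1, Sin3a, Cad, Sp1, Hspa5 and Nr4a1 against HG, and Atf6, Hspa5 and Mlxip against Ctrl, were named after their values were seen.

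Of the 11 genes that supply the pathway with glucose and glutamine, 1 rose in HG against Ctrl, 2 fell and 8 were not called (median log2 -0.15). Over all tested genes 5.81% were called higher and 7.85% lower. The hexokinase genes Hk1 (46.7 ± 0.0778 against 54.8 ± 1.85 FPKM, SD, n = 2, log2 -0.25 ± 0.04 SE) and Hk2 (-0.24 ± 0.05) fell, and the glutamine transporter gene Slc38a2 rose (0.13 ± 0.03). In siFGFR1+HG against HG, 4 of 11 rose, 1 fell and 6 were not called (median 0.14), where 14.1% of tested genes were called higher and 15.9% lower. Slc38a2 rose again, from 148 ± 1.54 to 188 ± 2.78 FPKM (0.35 ± 0.03), as did Slc38a1, a transporter of the same family (0.94 ± 0.20), and Gpi, which makes fructose-6-phosphate (0.14 ± 0.03). Slc38a1 was low, with a mean of 1.27 FPKM in HG and 2.42 in siFGFR1+HG. Glul, the glutamine synthetase gene, fell (-0.17 ± 0.04). By the edgeR test, the call of Slc38a2 against HG held with each library left out (adjusted p = 0.00054 with all libraries). The other calls named here were lost without at least 1 library: adjusted p = 0.0601 to 0.0969 for Hk1, 0.0583 to 0.148 for Hk2, 0.0824 to 0.127 for Slc38a2 against Ctrl, 0.0691 to 0.0901 for Slc38a1, 0.0690 to 0.0877 for Gpi and 0.0904 to 0.104 for Glul.

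Amino sugar salvage and breakdown genes had 1 of 11 higher and 0 lower in HG against Ctrl (median log2 0.08) and 0 higher and 2 lower in siFGFR1+HG against HG (median 0.04). Nans, the sialic acid synthase gene, rose from 57.2 ± 0.910 to 73.3 ± 3.19 FPKM in HG (log2 0.34 ± 0.06) and was at 56.0 ± 3.94 in siFGFR1+HG (-0.37 ± 0.06). Gne, whose product turns UDP-GlcNAc toward sialic acid, fell in siFGFR1+HG against HG (-0.29 ± 0.07). Values that did not pass were those of Uap1l1, a relative of Uap1 (-0.14 ± 0.04), and Mpi, the mannose phosphate isomerase gene (0.20 ± 0.06), in HG against Ctrl, and of Hexa, a lysosomal hexosaminidase subunit (0.09 ± 0.03), in siFGFR1+HG against HG. By the edgeR test, the rise of Nans was lost without Ctrl 1, Ctrl 2 or HG 2 (adjusted p = 0.0586 to 0.0782), and the fall of Gne without any 1 HG or siFGFR1+HG library (adjusted p = 0.0759 to 0.0912).

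In the list of UDP and UDP sugar supply, 1 of 9 genes rose, 1 fell and 7 were not called in HG against Ctrl (median log2 0.06). In siFGFR1+HG against HG 1 rose, 3 fell and 5 were not called (median -0.13). Ugdh, which oxidises UDP-glucose, measured 37.1 and 35.4 FPKM in the Ctrl libraries, 46.0 and 45.4 in the HG libraries and 26.8 and 28.1 in the siFGFR1+HG libraries. Its groups did not overlap: it rose in HG (0.32 ± 0.05) and fell in siFGFR1+HG against HG (-0.72 ± 0.05). Cad (-0.22 ± 0.03) and Umps (-0.50 ± 0.05), which encode enzymes of pyrimidine nucleotide synthesis, fell in siFGFR1+HG against HG, and Cad also fell in HG against Ctrl (-0.19 ± 0.03). Pgm1, a phosphoglucomutase gene, did not pass in HG against Ctrl (0.15 ± 0.06). The falls of Ugdh, Cad and Umps against HG held with each library left out. By the edgeR test, the rise of Ugdh in HG was lost without Ctrl 2 (adjusted p = 0.0564) and the fall of Cad in HG without Ctrl 1, Ctrl 2 or HG 2 (adjusted p = 0.0619 to 0.0836).

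Of 23 genes listed for the use of UDP-GlcNAc, 16 were tested. In HG against Ctrl 2 rose and 0 fell (median log2 0.08), namely the glycan branching genes Gcnt2 (0.80 ± 0.17) and Mgat4b (0.25 ± 0.05). In siFGFR1+HG against HG 2 rose and 3 fell (median 0.07). Mgat1, which starts complex N-glycans (0.22 ± 0.05), and Has2, a hyaluronan synthase gene at 0.572 ± 0.0762 FPKM in HG and 1.17 ± 0.0258 in siFGFR1+HG (1.04 ± 0.27), rose. Mgat2, which acts after Mgat1 (-0.30 ± 0.06), Gcnt2 (-0.76 ± 0.17) and Lfng, a fringe enzyme that modifies Notch (-0.34 ± 0.08), fell. Has2 did not pass in HG against Ctrl (-0.93 ± 0.27). It reached the level for testing only through Ctrl 2 (1.34 FPKM) and the siFGFR1+HG libraries (1.19 and 1.15 FPKM). The filter thus let Has2 in through the group where it was high, and its rise is to be read with that limit. Gcnt2 was also low, from 0.979 FPKM in siFGFR1+HG 1 to 1.93 in HG 1. By the edgeR test each of these calls was lost without at least 1 library: adjusted p = 0.0844 to 0.140 for Gcnt2 and 0.0939 to 0.115 for Mgat4b against Ctrl, and, against HG, 0.0560 to 0.0820 for Mgat1, 0.0641 to 0.113 for Has2, 0.0513 for Mgat2, 0.0522 to 0.0761 for Gcnt2 and 0.0797 to 0.0840 for Lfng.

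Among 11 genes for partners of OGT, 0 rose and 2 fell in HG against Ctrl (median log2 -0.10). Hcfc1, a chromatin cofactor that OGT cleaves, fell from 18.3 ± 0.500 to 14.4 ± 0.220 FPKM (-0.37 ± 0.04), and Tet3, a methylcytosine dioxygenase gene, fell by -0.44 ± 0.10. Trak1, a mitochondrial transport adaptor gene, did not pass (-0.18 ± 0.05). In siFGFR1+HG against HG 4 rose and 2 fell (median 0.09). Tet3 rose from 3.76 ± 0.546 to 6.53 ± 0.355 FPKM (0.81 ± 0.10), its relative Tet2 rose (0.80 ± 0.16), and Trak1 (0.18 ± 0.05) and Hcfc1 (0.13 ± 0.04) rose less. Tet2 was low, with a mean of 0.992 FPKM in HG and 1.71 in siFGFR1+HG. Sin3a, a corepressor gene (-0.21 ± 0.05), and the phosphatase gene Ppp1cc (-0.19 ± 0.04) fell. The fall of Hcfc1 in HG and the rise of Tet3 against HG held with each library left out. By the edgeR test the other calls were lost without at least 1 library: adjusted p = 0.0677 to 0.140 for Tet3 in HG, and, against HG, 0.0653 for Tet2 (without siFGFR1+HG 2), 0.0546 to 0.151 for Trak1, 0.0707 to 0.214 for Hcfc1, 0.0504 to 0.102 for Sin3a and 0.0541 to 0.0765 for Ppp1cc.

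The list of genes known to regulate or sense the pathway had 3 higher, 3 lower and 4 not called of 10 tested in HG against Ctrl (median log2 -0.04), and 5 higher, 1 lower and 4 not called in siFGFR1+HG against HG (median 0.21). Txnip, a gene induced by glucose, rose from 16.1 ± 1.86 to 35.1 ± 0.399 FPKM in HG (1.10 ± 0.08), and Atf4, a transcription factor gene of the amino acid stress response, rose in HG (0.22 ± 0.03) and again against HG in siFGFR1+HG (0.28 ± 0.03). Sp1, whose protein carries O-GlcNAc, fell in HG (-0.32 ± 0.04) and rose in siFGFR1+HG against HG (0.15 ± 0.04). Mlxip, a glucose-sensing transcription factor gene (-0.29 ± 0.06 and 0.34 ± 0.06), and Atf6, a sensor of unfolded protein (-0.19 ± 0.04 and 0.28 ± 0.04), did likewise. Hspa5, an endoplasmic reticulum chaperone gene, rose in HG (0.27 ± 0.05) and fell against HG (-0.19 ± 0.05), and the nuclear receptor gene Nr4a1 rose against HG (0.70 ± 0.15). The calls of Txnip and Sp1 in HG, and of Atf4, Atf6 and Mlxip against HG, held with each library left out. By the edgeR test the remaining calls were lost without at least 1 library: adjusted p = 0.0564 to 0.0635 for Atf4, 0.0598 to 0.149 for Atf6, 0.0502 to 0.0886 for Hspa5 and 0.0807 to 0.115 for Mlxip in HG, and 0.0505 to 0.138 for Sp1, 0.0630 to 0.132 for Hspa5 and 0.0561 to 0.0834 for Nr4a1 against HG.

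**Figure D4:**
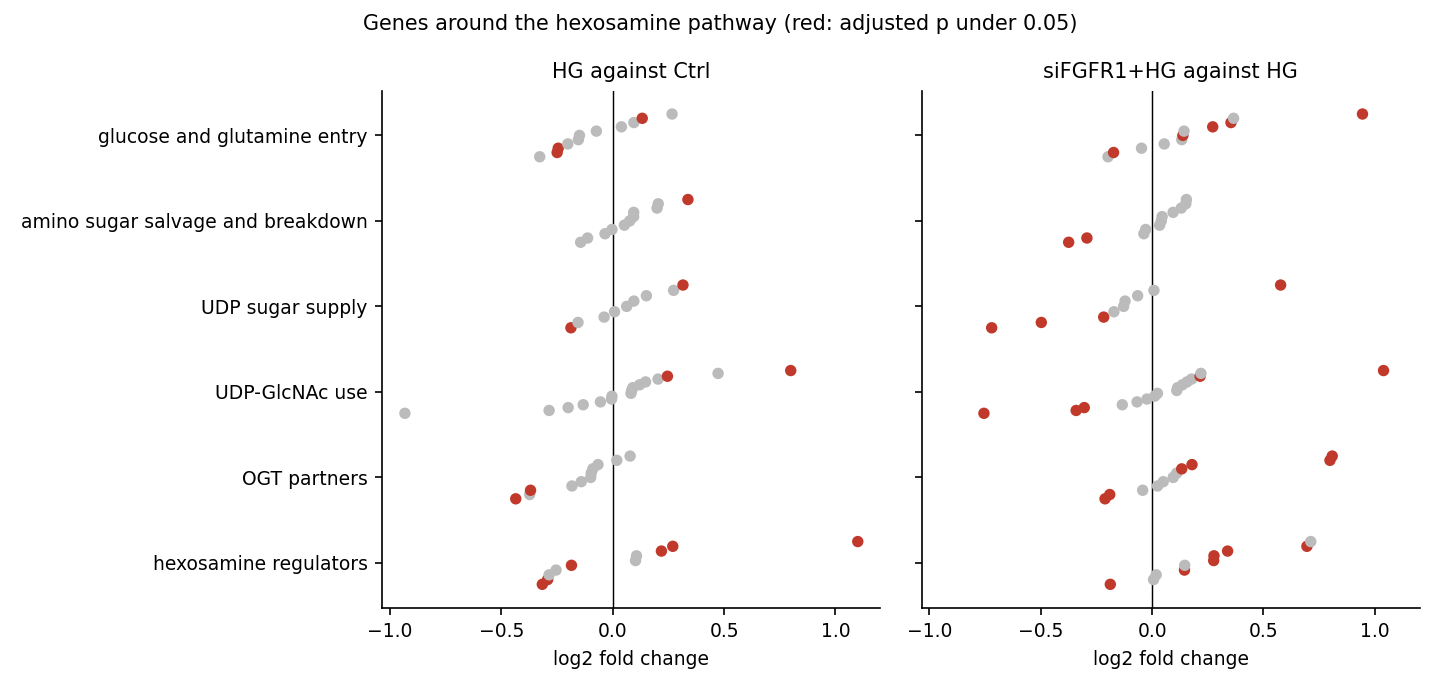
Log2 fold changes of the tested genes of 6 lists around the hexosamine pathway, in HG against Ctrl on the left and siFGFR1+HG against HG on the right. Each point is a gene, and red points passed at an adjusted p under 0.05. The red points run up to Txnip at 1.10 on the left, and from Gcnt2 at -0.76 to Has2 at 1.04 on the right. Has2 was under 1 FPKM in both HG libraries.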

How the data were processed

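RNA of 6 H9C2 libraries was sequenced. The authors deposited a table with counts and FPKM values per gene and library; fastp, HISAT2 and StringTie are named, without versions, per the submitters' processing notes. These notes also name the human build GRCh38, while all 32623 gene IDs are rat, so the build is unsure and coordinates are given as the deposited table has them. Low counts peaked at multiples of 4, so 1 fragment may add about 4 counts and it is unsure that the deposited counts are raw fragment counts. A floor of 12 counts (3 such fragments) was used, and counts divided by 4 were tested as an alternative. Strand use is not given in the sources used here.

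The 12229 genes that reached 1 FPKM in 2 or more libraries were tested on the deposited counts with edgeR 4.0.16 in R 4.3.3: TMM scaling, all 3 groups in 1 quasi-likelihood fit (3 residual degrees of freedom), Benjamini-Hochberg adjustment over all tested genes, threshold 0.05. In counts simulated with known changes, the share of false calls was above 0.05, so calls, above all those near the threshold, are less sure than it implies. The simulation changed a smaller share of genes than was called here, so it does not give the error of these calls. SEs were computed as the size of the log2 change divided by the square root of the quasi-likelihood F statistic, and so are approximate. The 95% intervals use these SEs and the moderated degrees of freedom of the fit (median 6.44). FPKM served for levels and for limma 3.58.1 on log2(FPKM + 1) with a trend; DESeq2 1.42.0 was another alternative, with other scalings, filters, fewer groups, a replicate block and left-out libraries. Depth ranged from 46960084 to 75021470 counts.

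All members were named, with the 3 genes of smallest p in each list in the comparisons of HG with Ctrl and of siFGFR1+HG with HG, and the 3 genes nearest in profile to Gfpt1, Ogt and Oga (mean of at least 5 FPKM). Lists covered glucose and glutamine entry, amino sugar salvage, UDP sugar supply, UDP-GlcNAc use, OGT partners and regulators, with markers of muscle, cardiomyocyte, macrophage, endothelial and epithelial cells. Members and lists were chosen with earlier results of these data known. Same-numbered libraries showed no shared deviation, and the main fit had no replicate block. A few genes that the naming rule or the lists hold are counted but not reported by name here.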

Additional observations from a re-analysis of the deposited data

How the results depend on the processing

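Of 288 values for the 6 tested members in 3 comparisons under 16 alternatives each, 259 kept their direction and side of the threshold, 9 lost a call, 6 gained one and 14 changed sign, the last all in values that had not passed. For HG against Ctrl the count of called genes, 1670, was 2616 with DESeq2 and 456 to 1302 with 1 library left out; members called went to 0 with limma on log2(FPKM + 1) or log2(FPKM + 0.1) and were 0 to 1 with a library left out. For siFGFR1+HG against HG, 3661 genes became 2293 to 3247 with a library left out, and members called were 2 with DESeq2 (Oga and Ogt), 2 with only the 2 groups compared (Oga and Gnpnat1) and 1 to 2 with a library left out. For siFGFR1+HG against Ctrl, 2723 genes became 1379 to 2586, and members 0 to 1. Gfpt1 in HG against Ctrl changed sign with library size alone (0.0051) and with limma (0.0047 and 0.0048), and ranged from -0.0838 to 0.0557 with a library left out. Pgm3 in siFGFR1+HG against HG did so with DESeq2 size factors (0.0065), DESeq2 (0.0064), a filter of 5 FPKM (0.0123) and 2 groups (0.0114), and ranged from -0.0560 to 0.0421. Left-out ranges that crossed 0 were -0.0220 to 1.11 for Gnpnat1 in HG against Ctrl, and -0.72 to 0.41 for Gnpnat1 and -0.10 to 0.0120 for Uap1 in siFGFR1+HG against Ctrl. With the counts divided by 4, 1734, 3672 and 2760 genes were called in HG against Ctrl, siFGFR1+HG against HG and siFGFR1+HG against Ctrl, and Oga was the member called in each. The cause of the changed values was not tested, beyond the fewer libraries of the left-out fits. Among 793 values of 50 list-gene results, 635 were kept, 151 lost a call, 7 gained one and 0 changed sign. The ratio of Ogt to Oga was also computed without each library and from counts, alternatives chosen after seeing the data, and its direction was kept.

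Same-numbered libraries did not deviate together (correlation of deviations 0.06, 0.05 and -0.09). Whether the numbers mark a shared culture or batch is not in the labels, and these correlations cannot decide it. With a replicate block 1153, 3253 and 2323 genes were called in HG against Ctrl, siFGFR1+HG against HG and siFGFR1+HG against Ctrl, and 1 member in each, with edgeR adjusted p-values for Oga of 0.0434, 0.0036 and 0.0292. With the number of counts per fragment assumed here, the spread within each group exceeded sampling noise. The median chi-square between libraries was 0.736 in Ctrl, 0.807 in HG and 0.696 in siFGFR1+HG, where sampling noise alone gives 0.455. These values depend on that assumed number, which is unsure.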
